A study of Mus musculus with 9 samples.

Results

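The 10 genes described here are the transcription factor gene Nfe2l2 and 9 genes of antioxidant enzymes: Gclc, Gclm, Gsr, Nqo1, Txnrd1, Prdx1, Prdx3, Sod1 and Sod2. They were chosen by name. Probes carrying exactly 1 of these symbols were taken and the probes of a gene were averaged. All 10 genes were found, on 11 probes, among 15096 genes with a probe of a single symbol. Nqo1 had 2 probes and each of the others had 1.

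Each array compared RNA of male SJL/J mice with RNA of male C57BL/6J mice, both inbred laboratory strains, at an age of 8 weeks. For each strain the RNA of 5 mice was pooled, and 20 ug of a pool entered each labelling. There were 3 arrays of whole liver, 3 of whole kidney and 3 of whole brain, with SJL/J in the far-red and C57BL/6J in the orange channel throughout. The 3 arrays of a tissue were technical repeats of the same pair of pools with no exchange of dyes, so errors and p-values below cover the spread between arrays and not between mice. Channel 1 of the liver and kidney arrays carries a brain tissue label, against their titles and source names, which were followed.

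The values are log2 ratios, SJL/J over C57BL/6J, so positive values mean more of the transcript in the SJL/J pool. The log base and this direction are likely rather than stated. They follow limma's conventions and the order of strains and dyes. The ratio of Nnt, a gene that carries a partial deletion in C57BL/6J, exceeded 0 on all 9 arrays. A ratio carries no expression level, so neither the identity of a tissue nor the brightness of a gene could be checked. A ratio from a whole tissue also cannot tell apart fewer cells of a type and less RNA per cell.

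NRF2, the product of Nfe2l2, is held in the cytoplasm by KEAP1, which marks it for degradation. Oxidants and electrophiles modify KEAP1, and NRF2 then enters the nucleus, pairs with a small MAF protein and binds antioxidant response elements near genes of glutathione synthesis, thioredoxin recycling and quinone reduction. Sod2 and Prdx3 act in mitochondria and are also driven by other factors. Liver and kidney, which handle xenobiotics, are tissues in which this pathway has been studied in depth.

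The core of the antioxidant response element, TGACNNNGC, was looked for on both strands of promoter windows of 300 bases, from 250 before to 50 after each RefSeq start on GRCm38.p6. Of the members, 8 have a window in the table used (10 windows, 3 of them for Txnrd1), and Gclc and Gsr are named only. A match was found in 5 of the 10 windows, those of Nfe2l2, Gclm, Prdx1, Sod1 and the second start of Txnrd1, whereas 12.4% of all 32851 windows hold one. A match is a run of letters and was not tested as a binding site. Shown here are the members with a window that passed a test in some tissue (Nfe2l2, Txnrd1, Prdx3 and Sod2), and Gclm, a widely used NRF2 target. Letters are on the gene's own strand and capitals mark the match.
Nfe2l2, chr2:75704614-75704913, minus strand: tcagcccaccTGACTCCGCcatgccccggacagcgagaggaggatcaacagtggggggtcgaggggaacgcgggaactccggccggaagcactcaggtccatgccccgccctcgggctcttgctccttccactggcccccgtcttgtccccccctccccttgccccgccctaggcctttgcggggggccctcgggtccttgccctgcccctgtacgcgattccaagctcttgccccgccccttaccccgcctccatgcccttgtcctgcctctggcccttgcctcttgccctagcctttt
Gclm, chr3:122245307-122245606, plus strand: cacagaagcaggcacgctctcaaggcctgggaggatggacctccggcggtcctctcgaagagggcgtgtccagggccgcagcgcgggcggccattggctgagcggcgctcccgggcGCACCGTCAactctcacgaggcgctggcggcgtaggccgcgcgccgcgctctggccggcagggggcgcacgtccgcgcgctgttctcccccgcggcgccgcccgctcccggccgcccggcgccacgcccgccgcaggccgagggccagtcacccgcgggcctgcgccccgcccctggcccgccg
Txnrd1, second start, chr10:82858956-82859255, plus strand: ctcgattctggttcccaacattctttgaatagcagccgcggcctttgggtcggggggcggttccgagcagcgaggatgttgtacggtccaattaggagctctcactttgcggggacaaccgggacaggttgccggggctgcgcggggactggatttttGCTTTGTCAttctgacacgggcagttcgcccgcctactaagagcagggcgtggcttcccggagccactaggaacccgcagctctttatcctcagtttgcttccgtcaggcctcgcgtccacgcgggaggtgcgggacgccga
Prdx3, chr19:60874489-60874788, minus strand: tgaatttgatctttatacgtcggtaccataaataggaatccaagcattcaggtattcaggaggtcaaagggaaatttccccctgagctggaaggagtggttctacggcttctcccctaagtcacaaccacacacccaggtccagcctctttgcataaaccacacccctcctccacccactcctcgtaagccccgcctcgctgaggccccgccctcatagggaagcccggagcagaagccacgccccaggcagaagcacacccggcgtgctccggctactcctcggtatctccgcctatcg
Sod2, chr17:13007589-13007888, plus strand: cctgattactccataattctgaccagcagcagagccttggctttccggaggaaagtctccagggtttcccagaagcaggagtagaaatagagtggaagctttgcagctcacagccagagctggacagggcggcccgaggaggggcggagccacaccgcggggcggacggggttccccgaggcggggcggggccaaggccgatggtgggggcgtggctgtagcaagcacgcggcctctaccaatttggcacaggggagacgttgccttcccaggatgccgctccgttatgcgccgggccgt
The match in Nfe2l2 begins 240 bases before the start. The matches in Gclm (GCACCGTCA), in the second start of Txnrd1 (GCTTTGTCA), in Prdx1 (GCTGAGTCA) and in Sod1 (GCGTGGTCA) lie on the opposite strand, 134, 92, 133 and 56 bases before the start. The windows of Nqo1, Prdx3 and Sod2 and the other two windows of Txnrd1 hold no run of these letters.

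In liver all 10 members had a mean ratio below 0, and 5 of them fell: Prdx3, Gclc, Nfe2l2, Txnrd1 and Gsr. The background share of genes called lower in liver was 14.4%, and 10.1% were called higher, among them none of the members. The members' median ratio was -0.44 in liver, against a median of -0.016 over all genes. In kidney 0 members rose and 0 fell by limma's test (1 at an unadjusted p under 0.05, Gsr), with a median of 0.078 against 0.025 over all genes and backgrounds of 13.5% called higher and 13.9% called lower. In brain 2 members rose, Gsr and Sod2, and 0 fell, with a median of 0.028 against 0.0062 over all genes and backgrounds of 7.55% and 9.61%. With 1 liver array left out, 3 members fell in liver whichever array it was.

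**Figure D1:**
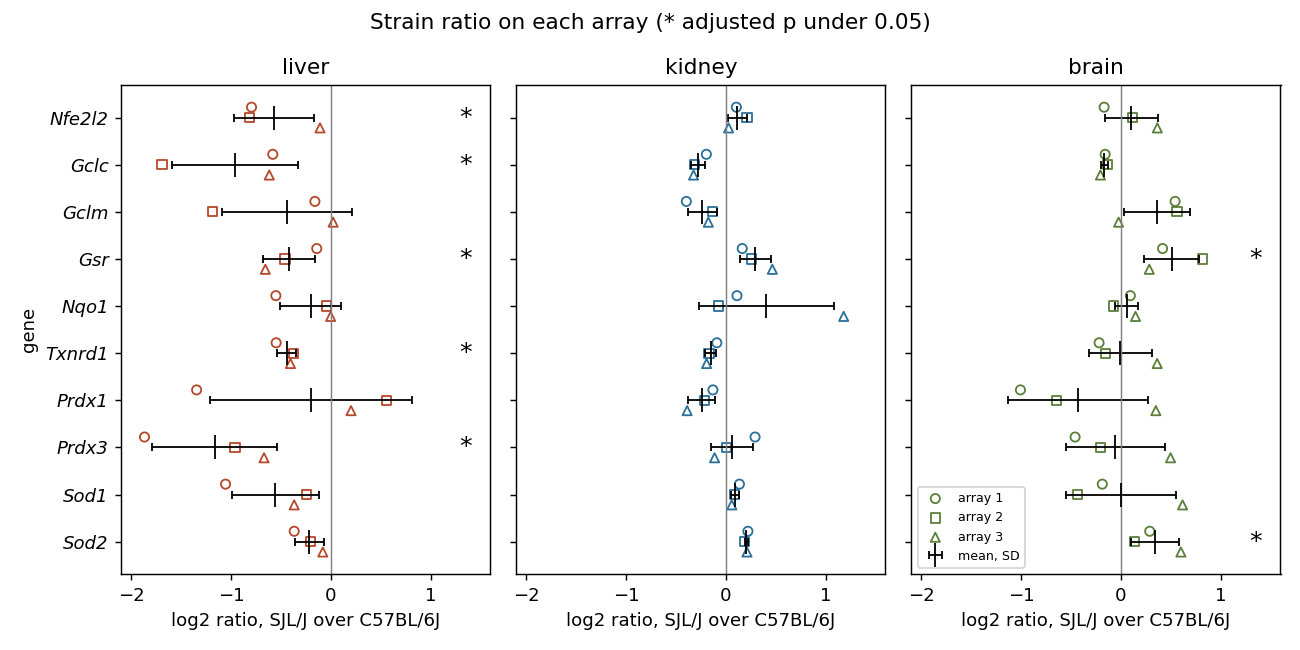
Log2 strain ratio (SJL/J over C57BL/6J, x axis) of each member (y axis) on each array, with liver, kidney and brain in separate panels. Open symbols are the 3 arrays, ticks and bars the mean and SD, and asterisks mark an adjusted p under 0.05; the 5 asterisks in liver lie beside means below 0 and the 2 in brain beside means above 0.

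The arrays of brain were less alike than those of the other tissues, and this bears on every brain value. Over all spots, brain replicate 3 correlated with brain replicates 1 and 2 at 0.52 and 0.57 and with the kidney arrays at 0.58 to 0.63, while brain replicates 1 and 2 correlated at 0.76. Spots share their array and its normalization, so these coefficients are descriptions. The members' median was 0.36 on brain replicate 3, against -0.16 and -0.10 on brain replicates 1 and 2. Of the members 8 lay above 0 on replicate 3 and 4 on each of the others. In liver the members' medians were -0.57, -0.41 and -0.24 on replicates 1, 2 and 3, with 10, 9 and 8 members below 0.

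**Figure D2:**
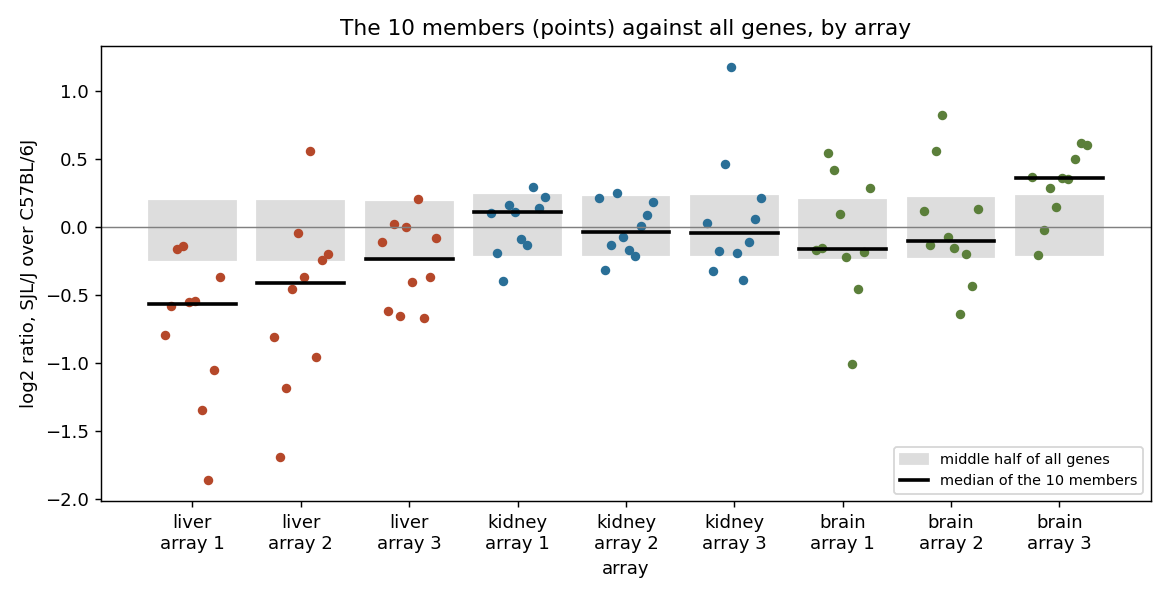
Log2 strain ratio (y axis) of the 10 members as points on each of the 9 arrays (x axis), with the members' median as a black line and the interquartile range of all genes as a grey box. The medians are -0.57, -0.41 and -0.24 on the liver arrays, and 0.36 on brain array 3 against -0.16 and -0.10 on the other brain arrays.

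Nfe2l2, which encodes NRF2 itself, was lower in the SJL/J liver pool. Its ratios on the liver arrays were -0.79, -0.81 and -0.11, against 0.11, 0.21 and 0.028 in kidney and -0.17, 0.12 and 0.37 in brain. The liver values were below 0 on 3 of 3 arrays, did not overlap with kidney, and overlapped with brain through liver replicate 3 and brain replicate 1. The liver mean was -0.57 ± 0.40 (SD, n = 3 arrays), a ratio of 0.673 (adjusted p = 0.0136), while kidney and brain had 0.12 ± 0.093 and 0.11 ± 0.27 and did not pass. The call rests on liver replicates 1 and 2: without replicate 1 the mean was -0.46 (adjusted p = 0.109), and without replicate 2 it was -0.45 (adjusted p = 0.104). 

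Gclc and Gclm encode the catalytic and the modifier subunit of glutamate-cysteine ligase, the first and rate-limiting enzyme of glutathione synthesis. Gclc was lower in the SJL/J liver pool, with ratios of -0.58, -1.69 and -0.62, against -0.20, -0.32 and -0.32 in kidney and -0.16, -0.13 and -0.20 in brain. It lay below 0 on all 9 arrays, and the liver values overlapped with neither of the other tissues. The liver mean was -0.96 ± 0.63 (SD, n = 3), a ratio of 0.513 (adjusted p = 0.00245), and kidney and brain had -0.28 ± 0.072 and -0.17 ± 0.036, which did not pass. Liver replicate 2 set the size: without it the mean was -0.60 and the call was kept (adjusted p = 0.00343). On the arrays of kidney alone Gclc passed (adjusted p = 0.0306), and likewise without liver replicate 2 (adjusted p = 0.0312).

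Gclm had ratios of -0.16, -1.19 and 0.023 in liver, -0.40, -0.13 and -0.18 in kidney, and 0.54, 0.56 and -0.023 in brain. Liver replicate 2 was its lowest array, as it was for Gclc, and the other liver arrays lay near 0. The means were -0.44 ± 0.65 (SD, n = 3) in liver (adjusted p = 0.129), -0.23 ± 0.14 in kidney (adjusted p = 0.408) and 0.36 ± 0.33 in brain (adjusted p = 0.23). None passed, and 95% intervals ran from -0.88 to -0.0067 in liver, from -0.67 to 0.20 in kidney and from -0.073 to 0.80 in brain. The line of its probe had a median of -0.35 in liver, like that of Gsr, and after subtraction of line and column medians the liver mean was -0.080 (adjusted p = 0.817). Without liver replicate 2 it was -0.068 (adjusted p = 0.807). The kidney and brain arrays did not overlap, but the difference of -0.60 between kidney and brain did not pass (adjusted p = 0.215).

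Gsr encodes glutathione reductase, which returns oxidised glutathione to its reduced form with NADPH. Its ratios were -0.14, -0.46 and -0.66 in liver, 0.16, 0.25 and 0.47 in kidney, and 0.42, 0.82 and 0.29 in brain. Liver was below 0 on 3 of 3 arrays and kidney and brain above 0 on all of theirs, so that liver overlapped with neither. Gsr fell in the SJL/J liver pool, at -0.42 ± 0.26 (SD, n = 3, adjusted p = 0.0326), and rose in the brain pool, at 0.51 ± 0.28 (adjusted p = 0.0198), while kidney had 0.29 ± 0.16 (adjusted p = 0.107).

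The line of 24 consecutive spots that holds the probe of Gsr had a median of -0.35 in liver, and its part in the Gsr ratio was not tested. After subtraction of line and column medians the liver mean was -0.071 (adjusted p = 0.734), and 4 members fell in liver, against 11.5% of all genes. The call was also lost without liver replicate 2 (-0.40, adjusted p = 0.127) or replicate 3 (-0.30, adjusted p = 0.215). The brain call was lost without brain replicate 1 (0.55, adjusted p = 0.0549) or replicate 2 (0.35, adjusted p = 0.152) and on the brain arrays alone (adjusted p = 0.105), and it was kept with the medians removed (0.50).

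Nqo1 encodes a quinone reductase that is a standard readout of NRF2. Averaged over its 2 probes it had -0.55, -0.044 and -0.0019 in liver, 0.11, -0.076 and 1.18 in kidney, and 0.095, -0.072 and 0.15 in brain. One kidney value stood far from the rest: on kidney replicate 3 one probe gave 2.23 and the other 0.14. The first of these probes had -0.013 and -0.26 on kidney replicates 1 and 2 and the second 0.24 and 0.11. No mean passed, at -0.20 ± 0.31 (SD, n = 3) in liver (adjusted p = 0.504), 0.41 ± 0.68 in kidney (adjusted p = 0.153) and 0.057 ± 0.11 in brain (adjusted p = 0.87). The kidney mean was 0.018 without replicate 3. The 95% interval of the liver mean ran from -0.64 to 0.24.

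Txnrd1 encodes the cytosolic thioredoxin reductase, a selenoenzyme that keeps thioredoxin reduced. It was lower in the SJL/J liver pool, with ratios of -0.55, -0.37 and -0.40, against -0.090, -0.17 and -0.19 in kidney and -0.22, -0.16 and 0.36 in brain. Liver did not overlap with kidney or brain, but neither difference between tissues passed (adjusted p = 0.218 and 0.0995 by limma's contrasts). The liver mean was -0.44 ± 0.094 (SD, n = 3), a ratio of 0.737 (adjusted p = 0.0155), with -0.15 ± 0.054 in kidney (adjusted p = 0.348) and -0.0039 ± 0.32 in brain (adjusted p = 0.986). It had the smallest spread in liver of all members. Leaving out 1 liver array moved its mean only between -0.48 and -0.39, but the adjusted p was 0.101 without replicate 1 and 0.0616 without replicate 3.

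Prdx3, the peroxiredoxin of mitochondria, was lower in the SJL/J liver pool. Its ratios were -1.87, -0.96 and -0.67 in liver, 0.29, 0.0075 and -0.11 in kidney, and -0.46, -0.20 and 0.50 in brain. All liver values lay below all others. The liver mean was -1.17 ± 0.62 (SD, n = 3), a ratio of 0.446 (adjusted p = 0.00286), with 0.063 ± 0.21 in kidney and -0.054 ± 0.50 in brain, neither of which passed. Liver replicate 1 was the lowest, and without it the mean was -0.81 (adjusted p = 0.0246), above that of Gclc at -1.15.

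Prdx3 and Gclc share a line of 24 spots, 4 spots apart. That line had a median of -0.10 in liver. The spots on either side of Prdx3, which carry Akr1c12 and Xdh, had liver means of -1.37 and -0.27. Those on either side of Gclc, Atp5b and Cyp11a1, had -0.53 and 0.0076. After subtraction of line and column medians, Prdx3 had -1.08 (adjusted p = 0.00344) and Gclc -0.87 (adjusted p = 0.00622). Both fell in liver under each of 17 alternative settings, with the highest adjusted p at 0.0246 for Prdx3 and 0.0207 for Gclc.

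Prdx1, the abundant cytosolic peroxiredoxin, had -1.34, 0.56 and 0.20 in liver, -0.13, -0.21 and -0.39 in kidney, and -1.01, -0.64 and 0.35 in brain. Its liver and brain arrays disagreed in sign, and only the kidney arrays all lay on one side of 0. Its means of -0.19 ± 1.01 (SD, n = 3) in liver, -0.24 ± 0.13 in kidney and -0.43 ± 0.70 in brain did not pass (adjusted p = 0.69, 0.601 and 0.365). The 95% interval of the liver mean ran from -0.88 to 0.49. Without liver replicate 1 its liver mean was 0.38.

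Sod1 and Sod2 encode the cytosolic copper-zinc and the mitochondrial manganese superoxide dismutase. Sod1 had -1.06, -0.25 and -0.37 in liver, 0.14, 0.087 and 0.060 in kidney, and -0.19, -0.44 and 0.62 in brain. Liver lay below 0 on 3 of 3 arrays and did not overlap with kidney. The liver mean of -0.56 ± 0.44 (SD, n = 3) missed the threshold (adjusted p = 0.0519), and it passed without brain replicate 3 (adjusted p = 0.0115) and on the liver arrays alone (adjusted p = 0.0456). It passed in 6 of 17 alternative settings, and without liver replicate 1 the mean was -0.31 (adjusted p = 0.352). Kidney had 0.094 ± 0.039 and brain -0.0013 ± 0.55.

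Sod2 had -0.37, -0.20 and -0.080 in liver, 0.22, 0.19 and 0.21 in kidney, and 0.29, 0.14 and 0.60 in brain. Liver was below 0 on 3 of 3 arrays, and kidney and brain were above 0 on all of theirs. Sod2 rose in the SJL/J brain pool at 0.34 ± 0.24 (SD, n = 3, adjusted p = 0.0417), while liver had -0.22 ± 0.14 (adjusted p = 0.15) and kidney 0.21 ± 0.018 (adjusted p = 0.156). The liver mean was -0.060 after subtraction of line and column medians (adjusted p = 0.677). The brain call was kept in 4 of 17 alternative settings, and without brain replicate 3 the mean was 0.21 (adjusted p = 0.165). On the brain arrays alone the adjusted p was 0.194.

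The strain ratio differed between liver and the other tissues for several members, and a dye effect that is alike in both tissues cancels in these differences. Between liver and kidney 3 members differed, all with the lower ratio in liver, against a background of 19.5% of genes called in either direction. They were Prdx3 (-1.23, 95% interval -1.90 to -0.56, adjusted p = 0.0184), Gsr (-0.71, -1.11 to -0.32, adjusted p = 0.0193) and Nfe2l2 (-0.69, -1.13 to -0.24, adjusted p = 0.0353). The difference was below 0 for 9 of 10 members, with a median of -0.63 against -0.029 over all genes. Sod2 (-0.42, adjusted p = 0.0614), Gclc (-0.69, adjusted p = 0.071) and Sod1 (-0.65, adjusted p = 0.107) did not pass, although their liver and kidney arrays did not overlap, and the same held for Txnrd1 (-0.29, adjusted p = 0.218). The share of all genes whose arrays did not overlap is not given here, so absence of overlap, here and above, is a description only. Without brain replicate 3, whose spread enters the shared error, 5 members passed, against 27.2% of all genes. The call of Gsr was lost after subtraction of line and column medians (-0.30, adjusted p = 0.273). With array weights 6 members passed, against 29.4%. With 1 kidney or liver array left out, between 1 and 2 passed: 1 without kidney replicate 1 or 3 or liver replicate 1 or 2, and 2 without kidney replicate 2 or liver replicate 3.

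Between liver and brain 3 members differed as well, against a background of 11.6%. They were Gsr (-0.93, 95% interval -1.32 to -0.53, adjusted p = 0.00807), Sod2 (-0.56, -0.88 to -0.24, adjusted p = 0.0305) and Prdx3 (-1.11, -1.78 to -0.44, adjusted p = 0.0389). Nfe2l2 (-0.68, adjusted p = 0.0517), Gclc (-0.80, adjusted p = 0.0578), Gclm (-0.80, adjusted p = 0.0878) and Txnrd1 (-0.44, adjusted p = 0.0995) did not pass. Both comparisons use the same liver arrays. After subtraction of line and column medians 0 members differed between liver and brain, with Gsr at -0.57 (adjusted p = 0.0682) and Prdx3 at -0.94 (adjusted p = 0.0599), against 9.98% of all genes. The call of Sod2 was lost by the same subtraction (-0.30, adjusted p = 0.146). The call of Prdx3 was kept in 7 of 16 alternative settings, and in 2 of the 9 that left out 1 array (those without brain replicate 1 or liver replicate 3). That of Sod2 was kept in 12 of 16, and was lost without brain replicate 3 (-0.43, adjusted p = 0.0567), liver replicate 1 (adjusted p = 0.108) or liver replicate 2 (adjusted p = 0.0741). With 1 array left out, the count ranged between 1 (without liver replicate 2) and 5 (without liver replicate 3).

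Between kidney and brain 0 members differed by limma's test, and 0 at an unadjusted p under 0.05, against a background of 5.47%. The lowest adjusted p was that of Gclm. Tissue dependence by the moderated F-test was called for 4 members, Gsr (adjusted p = 0.0102), Prdx3 (adjusted p = 0.0246), Sod2 (adjusted p = 0.0371) and Nfe2l2 (adjusted p = 0.0413), against 22.1% of all genes. With 1 array left out the count was 1 to 4.

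**Figure D3:**
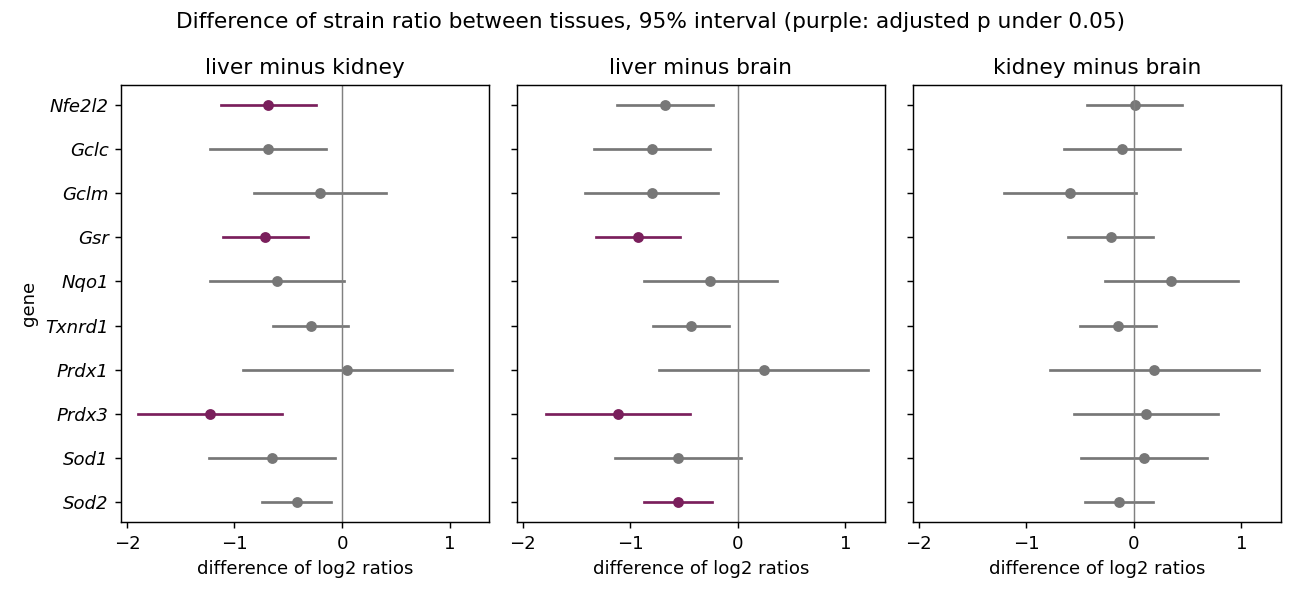
Difference between tissues of the log2 strain ratio (x axis) for each member (y axis), with the first-named tissue minus the second in each panel. Points are estimates, bars 95% intervals and purple marks an adjusted p under 0.05, which holds for 3 members in liver minus kidney, 3 in liver minus brain and 0 in kidney minus brain.

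A ratio shared by the 3 tissues, tested on 3 tissue means per gene, was called for 0 of 10 members by limma (2 at an unadjusted p under 0.05, Gclc and Prdx1), where 0.0397% of genes were called higher and 0.669% lower. Gclc had a shared mean of -0.47 (95% interval -0.90 to -0.036, adjusted p = 0.286) and Prdx1 -0.29 (-0.56 to -0.016, adjusted p = 0.294). Both had tissue means below 0 in all 3 tissues, as did no other member except Txnrd1.

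Other genes of the pathway were read from 6 lists, with the liver backgrounds of 14.4% lower and 10.1% higher. Of the list of other NRF2 targets, 32 genes were measured (36 written), and in liver 15 fell, 2 rose and 15 did not pass, with a median of -0.42 against -0.016 over all genes. Aldh3a2, a dehydrogenase of fatty aldehydes, had -2.07 ± 0.49 (SD, n = 3). Gstm2 and Gsta1, glutathione S-transferases, had -2.04 ± 0.28 and -1.98 ± 0.22, and Abcc3, an export pump whose probe number is divisible by 8, had -1.85 ± 0.13. Hmox1, the inducible haem oxygenase and a widely used NRF2 target, was one of the 2 that rose, at 0.52, and is named outside the rule for its opposite sign. After subtraction of line and column medians 14 fell and 3 rose, and with 1 liver array left out 12 to 14 fell. The median was -0.26 without liver replicate 1. Close copies of a glutathione S-transferase gene may hybridise to the same spot, which was not tested.

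In kidney 6 of these other targets fell and 2 rose, with a median of -0.11, and in brain 4 fell and 0 rose, with a median of -0.12. Without probes at multiples of 8, 2 of 28 fell in kidney (median -0.028) and 2 of 28 in brain (median -0.086). The backgrounds of genes called lower over all probes were 13.9% in kidney and 9.61% in brain. Aldh3a1, an aldehyde dehydrogenase, had -2.15 ± 0.098 in kidney and -2.09 ± 0.17 in brain (SD, n = 3 each), and Ugdh, which makes UDP-glucuronic acid, -1.62 ± 0.017 and -0.70 ± 0.34. Both are at probe numbers that are multiples of 8, where the median ratio was -0.36 in kidney and -0.17 in brain, against 0.06 and 0.034 at the other spots, and none of the 11 member probes is at such a number. Aldh1a1, another aldehyde dehydrogenase, had 1.12 ± 0.85 in kidney and -1.40 ± 0.78 in brain. Hmox1 had -0.48 ± 0.23 in brain.

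Thioredoxins, peroxiredoxins and sulfiredoxin, the partners of Txnrd1, Prdx1 and Prdx3, gave 3 genes that fell, 1 that rose and 11 that did not pass among 15 measured in liver (18 written), with a median of -0.21. Txn1, the cytosolic thioredoxin that Txnrd1 reduces, had -1.69 ± 0.40 (SD, n = 3, adjusted p = 1.38e-05), with arrays between -2.04 and -1.26. Prdx4, the peroxiredoxin of the endoplasmic reticulum, had -0.73 ± 0.36, and Msra, a methionine sulfoxide reductase, -0.55 ± 0.14. Txnrd3, a further thioredoxin reductase, rose, at 0.41 ± 0.074, but it did not pass after subtraction of line and column medians or with any 1 of the liver arrays left out. The list's median was -0.060 after that subtraction, with 3 that fell. In kidney 2 fell and 2 rose, against 13.9% and 13.5% of all genes. Txndc12 had -0.69 ± 0.39 there and Txn2, the mitochondrial thioredoxin, 0.50 ± 0.22. In brain 1 fell and 0 rose, against 9.61% and 7.55%.

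Genes of glutathione synthesis and use went both ways in liver. Of 23 measured (26 written) 8 fell, 5 rose and 10 did not pass, with a median of -0.15. Hagh and Glo1, which detoxify methylglyoxal, had -0.90 ± 0.077 and -0.72 ± 0.21 (SD, n = 3), Gpx6, a glutathione peroxidase, -0.79 ± 0.29 and Gpx8, of the endoplasmic reticulum, 0.84 ± 0.19. In kidney 5 fell and 5 rose, against 13.9% and 13.5% of all genes. In brain 1 fell and 2 rose, against 9.61% and 7.55%. Gpx4, which reduces lipid hydroperoxides, had 0.93 ± 0.11 in kidney and 0.96 ± 0.33 in brain. Glrx, a glutaredoxin, had 0.91 ± 0.31 in kidney, and Chac1, which breaks down glutathione, 0.70 ± 0.093. Gpx4 and Chac1 also rose in liver, at 0.47 and 0.34. Of the genes that fell in kidney, Ggt5, at a multiple of 8, was the lowest at -0.64 ± 0.20. In liver 6 fell and 2 rose without replicate 1, 4 fell and 4 rose without replicate 2, and 6 fell and 2 rose without replicate 3.

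Genes of superoxide and peroxide removal showed 5 that fell, 0 that rose and 4 that did not pass among 9 measured in liver (10 written), with a median of -0.37. Pon1, a paraoxonase that liver secretes, had -1.28 ± 0.44 (SD, n = 3), Aifm1, a mitochondrial flavoprotein, -0.54 ± 0.18, Ccs, the copper chaperone of Sod1, -0.38 ± 0.37 and Selenop, a selenium carrier, -0.37 ± 0.20. The count was 1 after subtraction of line and column medians and 1 to 2 with 1 liver array left out (1 without replicate 1, 2 without replicate 2 and 2 without replicate 3). Sod3, the extracellular dismutase, had 0.40 ± 0.15 in kidney and -0.58 ± 0.23 in brain, and Cat, the catalase gene, 0.41 ± 0.20 in brain. In kidney 1 fell, Selenop at -0.50 ± 0.12, and 2 rose, against 13.9% and 13.5% of all genes. After subtraction of line and column medians 0 fell there. In brain 1 fell and 1 rose, against 9.61% and 7.55%.

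The suppliers of NADPH, on which Gsr and Txnrd1 depend, gave 3 that fell, 2 that rose and 9 that did not pass among 14 measured in liver (15 written), with a median of -0.11. Idh1, the cytosolic isocitrate dehydrogenase, had -0.72 ± 0.44 and Idh2, its mitochondrial counterpart, 0.73 ± 0.11 (SD, n = 3 each). Me1 and Me3, malic enzymes, had -1.05 ± 0.10 and -0.44 ± 0.19, both at multiples of 8. With the probes at multiples of 8 left out, 1 fell of 12. In kidney 1 fell and 3 rose, against 13.9% and 13.5% of all genes. They were led in size by Me3 at -1.10 ± 0.096 and Nadk, an NAD kinase, at 0.85 ± 0.42. In brain 2 fell, Me3 and Me1, and 2 rose, against 9.61% and 7.55%. Those that rose in brain were Idh2 at 0.95 ± 0.44 and Nnt at 0.61 ± 0.42. Nnt, named above for the direction of the ratio, also rose in kidney, at 0.67 ± 0.46. The genes of this list that fell in kidney and brain were all at multiples of 8.

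Most regulators of NRF2 did not pass a test. Of 15 measured 2 fell, 1 rose and 12 did not pass in liver, with a median of -0.14. Park7, a redox sensor also known as DJ-1, had -0.68 ± 0.19 and Sqstm1, the autophagy adaptor that binds KEAP1, -0.48 ± 0.027 (SD, n = 3 each). Keap1 rose in kidney, at 0.34 ± 0.11, as did Dpp3, which competes for KEAP1, at 0.84 ± 0.41. These were the 2 kidney calls, against 13.5% of all genes called higher there. In brain 1 rose, Nfe2l3, a relative of Nfe2l2, at 0.35 ± 0.16, and 0 fell, against 7.55% called higher. After subtraction of line and column medians, 1 fell and 0 rose in liver, and 0 fell and 1 rose in kidney. The gene that rose in liver in the main fit was Bach1, a repressor that competes with NRF2, at 0.39 (adjusted p = 0.0426). It was named after its value was seen, and it did not pass without liver replicate 2 or 3.

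**Figure D4:**
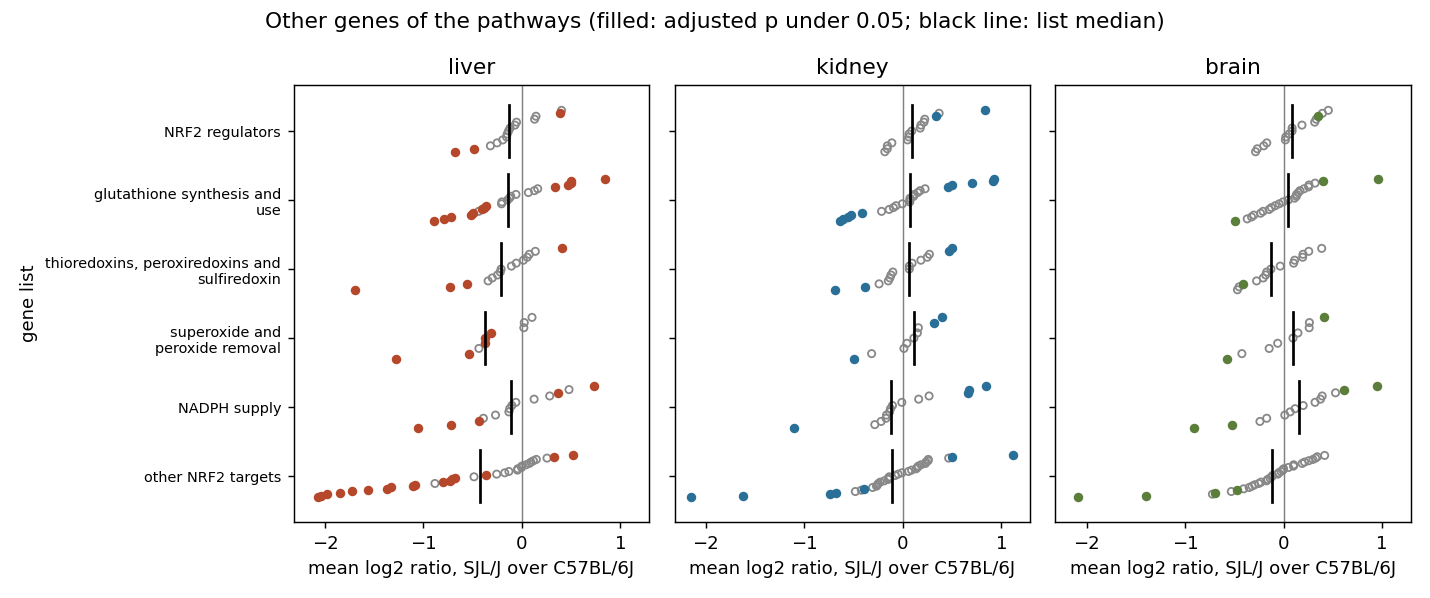
Mean log2 strain ratio (x axis) of the measured genes of 6 pathway lists (y axis) in liver, kidney and brain. Points are genes, filled where the adjusted p was under 0.05, and black lines are list medians; the median of other NRF2 targets is -0.42 in liver, -0.11 in kidney and -0.12 in brain.

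Markers of cell types were read beside the liver values, since the pools are of whole tissue. The liver backgrounds were 10.1% called higher and 14.4% called lower. Hepatocyte markers, of which 14 were measured, gave 6 that rose, 2 that fell and 6 that did not pass, with values between -1.69 (Tdo2) and 1.14 (Serpina1a) and a median of 0.26. Kupffer cell and macrophage markers gave 2 that rose and 1 that fell of 9 (median 0.016), with Mrc1, at a multiple of 8, at -0.68 ± 0.49 and Cd163 at 0.46 ± 0.24 (SD, n = 3 each). Endothelial and stellate markers gave 0 that rose and 1 that fell of 10 (median -0.049), bile duct markers 0 and 1 of 5 (median -0.045), and erythroid markers 2 and 1 of 4 (median 0.040), with Alas2 at -1.96 ± 0.35 and Hba-a1 at 0.83 ± 0.35. The part of cell composition in the members' liver ratios was not tested.

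In kidney, distal nephron markers gave 4 that rose and 0 that fell of 8 (median 0.58), with Aqp2 at 1.12 ± 0.39 and Aqp3 at 1.07 ± 0.14 (SD, n = 3 each). Aqp3 also rose in brain, at 1.02 ± 0.18, and in liver, at 0.54 ± 0.10, so its rise was not particular to kidney. Proximal tubule markers gave 2 that rose and 1 that fell of 9 in kidney (median 0.00012). The kidney backgrounds were 13.5% called higher and 13.9% called lower. In brain, oligodendrocyte markers gave 0 that rose and 3 that fell of 9 (median -0.18), led by Mog at -0.97 ± 0.48. The same list gave 0 that rose and 3 that fell of 9 in liver (median -0.35), so its fall was not particular to brain. Astrocyte markers gave 0 and 1 of 8 in brain (median 0.098) and neuron markers 2 and 1 of 10 (median 0.058). The brain backgrounds were 7.55% called higher and 9.61% called lower. The part of these cell types in the members' ratios was not tested.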

How the data were processed

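The deposited table gave a log2 ratio for each of 23040 spots on 9 arrays, normalized by the authors with R 2.0.0 and limma, per the submitters' processing notes. The log base and direction are taken from limma's conventions. The sorted values of all columns are the same. How the background was corrected is not given in the sources used here. Ratios without intensities allow no filter on dim spots, and precision is limited by how many arrays there were.

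Gene symbols came from the annotation of the array platform: 16874 probes carried 1 symbol, 134 several and 6032 were unnamed. Probes of a gene were averaged, and the 15096 genes were fitted with a mean per tissue in limma 3.58.1 in R 4.3.3 (6 residual degrees of freedom, prior 5.17 with SD 0.195). Tests were two-sided, with Benjamini-Hochberg adjustment over all genes and a threshold of 0.05, and "rose" and "fell" are used of genes that passed. The fit was tested on simulated data.

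Members, lists and tests were chosen with earlier results of these data known, so the lists are no independent evidence. All 10 members are named. Apart from Hmox1 and Bach1 in liver, genes named from a list had its largest absolute means in a tissue. Up to 4 qualified per pathway list and up to 2 per marker list, among genes called with 1 sign on 3 arrays. Not all genes that qualified are named. Nnt is named for the direction. Replicate numbers were checked for pairing: correlations of deviations from tissue means lay between -0.079 and 0.046 for the same number in 2 tissues, so the numbers were not used as a block. Alternatives were removal of line and column medians, probes at multiples of 8, other centring, 1 probe per gene, array weights, a robust prior, single tissues and 1 array left out. List counts under such alternatives were added after seeing the data. Promoter windows come from RefSeq on GRCm38.p6.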

Additional observations from a re-analysis of the deposited data

Results flagged for a closer look

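In 6 cases the strain ratio of a member differed between tissues by limma's contrast of the tissue coefficients. For liver minus kidney these were Prdx3 (-1.23), Gsr (-0.71) and Nfe2l2 (-0.69), and for liver minus brain Prdx3 (-1.11), Gsr (-0.93) and Sod2 (-0.56). In each case the 3 liver arrays lay below the 3 arrays of the other tissue. The cases were chosen by the contrast on these same arrays, so this is no separate evidence. The liver and kidney arrays of Gclc, Txnrd1, Sod1 and Sod2 did not overlap either, and those differences did not pass. The backgrounds of genes called by the contrast were 19.5% and 11.6% of all genes. They are not shares of genes without overlap, which are not given here. Subtraction of line and column medians took the Gsr difference between liver and kidney to -0.30 (adjusted p = 0.273) and ended the 3 calls between liver and brain. The liver line of Gsr had a median of -0.35 and that of Sod2 -0.16, against -0.10 for Prdx3 and -0.12 for Nfe2l2. Brain replicate 3 was above both other brain arrays for 7 of 10 members, as for 41.2% of all genes. The part of these values in the differences was not tested.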

How the results depend on the processing

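Of 11 counts of members, those lower in brain, higher in liver, different between kidney and brain, and shared by tissues were 0 under every alternative that could be fitted. The members lower in liver numbered 5, and 3 to 6 with 1 array left out. The members higher in brain numbered 2, and 1 after subtraction of line and column medians, with other centring, with array weights or with the replicate block, 0 on the brain arrays alone, and 0 to 2 with 1 array left out. Of all genes 7.55% were higher in brain in the main fit and 5.96% with the medians removed. With array weights the share was 9.13%, with the replicate block 6.35% and on the brain arrays alone 0.855%. In kidney 1 was higher with array weights, and 1 was higher and 1 lower on the kidney arrays alone, with 0 to 1 lower when 1 array was left out. Of all genes 21.2% were higher in kidney with array weights, and 17.3% were higher and 18.3% lower on the kidney arrays alone. Members that differed between liver and kidney numbered 3, but 6 with array weights (29.4% of all genes) and 1 to 5 with 1 array left out. Those that differed between liver and brain numbered 3, but 0 after subtraction of line and column medians (9.98% of all genes) and 1 to 5 with 1 array left out. Tissue dependence was called for 4, for 2 with the medians removed (17.5% of all genes) and for 1 to 4 with 1 array left out. With the replicate block 6 members were lower in liver, with Sod1 added (adjusted p = 0.046), against 13.5% of all genes. Under the same setting 4 differed between liver and brain, with Nfe2l2 added (adjusted p = 0.0452), against 10.4% of all genes. Sod2 in brain was lost (adjusted p = 0.0505). The replicate numbers are only names here, since same-numbered arrays of different tissues did not deviate together. Of the single ratios recomputed, 23 lost and 10 gained a call, and no called ratio changed sign. Of the differences between tissues recomputed, 25 lost and 11 gained a call. The cause was not tested. Without intensities, dim and bright spots count alike.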
